A study of Mus musculus with 17 samples.

Results

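The comparison described here is that of livers lacking NgBR with wild-type (WT) livers after a high-fat diet (HFD), across all genes of the HFD count table. It was taken from the column names of that table, 4 of N-LKO livers and 4 of WT livers, which are 8 of the 17 libraries of the series. N-LKO mice carry floxed alleles of Nus1, the gene of the Nogo-B receptor NgBR, in which exon 1 is flanked by loxP sites. They also carry a Cre recombinase driven by the albumin promoter, which is active in hepatocytes. The study counts endothelial, stellate and Kupffer cells among the liver cells that express NgBR. All mice were males on a C57BL6 background, kept on chow for 8 weeks and then on HFD for 16 weeks. Whether the WT mice carry floxed alleles without Cre is not given in the sources used here. N-LKO mice on this diet carry liver nodules according to the study's methods and text, and the sources used here do not say how nodules were kept out of the pieces taken for RNA. Nothing in the labels ties the 4 libraries of a group to cages or litters.

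NgBR and Dhdds form the cis-prenyltransferase that makes the long polyprenol from which dolichol is built. Dolichol phosphate carries sugars in the membrane of the endoplasmic reticulum (ER), where an oligosaccharyltransferase moves the finished glycan to asparagines of newly made proteins. Hepatocytes secrete most plasma proteins, many of them N-glycosylated, so this pathway is in heavy use in liver.

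Nus1, on chromosome 10 from 52417547 to 52440183 (GRCm38), was measured at 85.3, 96.2, 82.5 and 88.6 CPM (counts scaled to the size of each library) in WT replicates 1 to 4 and at 37.6, 35.4, 37.97 and 29.4 CPM in N-LKO replicates 1 to 4. Every N-LKO liver lay below every WT liver, at means of 88.2 ± 5.90 and 35.1 ± 3.99 CPM (WT and N-LKO, SD, n = 4 each; log2 fold change −1.33, SE 0.10, adjusted p 0.000194). A gene count sums reads over all exons, so it does not tell transcripts without exon 1 from transcripts of cells that kept the gene. Dhdds, the catalytic partner, stood at 22.8, 23.3, 19.5 and 21.2 CPM in WT and 21.1, 25.5, 22.1 and 22.7 CPM in N-LKO livers, and the groups overlapped (log2 fold change 0.08, SE 0.10, adjusted p 0.693).

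Total counts per library were 9096109 to 12215764 and overlapped between the groups. Some other measures of the libraries separated the groups wholly, and others did not. Genes with a count numbered 18059 to 18225 in WT and 18228 to 18415 in N-LKO livers, and the 10 most abundant genes took 21.5% to 23.1% and 20.1% to 21.01% of the counts (two-sided exact permutation p 0.0286 for each, the smallest that 4 against 4 allows). TMM scaling factors were 0.942 to 0.9999 in WT and 1.01 to 1.05 in N-LKO livers, at the same p. The share of counts on mitochondrially encoded genes overlapped, at 10.2% to 11.5% in WT and 10.3% to 12.9% in N-LKO livers (p 0.743 by the same test). The share on the single feature CT010467.1 was 4.87% to 7.94% and 3.05% to 5.17%, which also overlapped (p 0.0571 by the same test). The part of these measures in the values below was not tested. The principal component of largest variance (41.6% of the variance of the most variable genes) separated the genotypes, and WT replicate 1, at −5.09, lay nearest to the N-LKO livers among WT livers, the others being at −12.9 to −17.7. Hepatocyte markers defined the tissue: all 11 analysed were tested, none was called, and their sum was 68566 to 79673 CPM in WT and 63487 to 82214 CPM in N-LKO livers. Albumin (Alb) was at 54442, 47441, 46615 and 55620.0 CPM in WT and 43002, 56307, 45528 and 48823 CPM in N-LKO livers, which overlapped (−0.08, adjusted p 0.771). Fewer cells of a type and less RNA per cell cannot be told apart in any value given here, since whole liver was measured.

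By edgeR's quasi-likelihood test 652 of 13460 genes passed the threshold, an adjusted p of 0.05, which is 4.84% of genes (called below). In N-LKO livers 344 of them (2.56%) were higher and 308 (2.29%) were lower. These shares of all genes are to be set beside every count of list members called below, also where they are not repeated. The groups did not overlap, with N-LKO livers higher, for 7.39% of genes and, with N-LKO livers lower, for 7.4%. The median log2 fold change over all genes was −0.01. The count fell to 179, 225, 181, 276 and 322 without WT replicate 2, WT replicate 4 and N-LKO replicates 1, 3 and 4, and stayed between 580 and 597 without any of the other 3 libraries. The libraries whose omission ended a call are therefore named below.

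Fold changes followed transcript length. Genes were divided into 10 bins of length. In the bin of shortest transcripts (median 594.5 bases) 123 genes were called higher and 4 lower, and in that of the longest (median 7927 bases) 9 were called higher and 124 lower. For each library, the median deviation from the mean of the 8 libraries was taken in both bins, and the value of the shortest bin was subtracted from that of the longest. It was 0.267, 0.270, 0.0895 and 0.157 in WT replicates 1 to 4 and −0.231, −0.253, −0.195 and −0.155 in N-LKO replicates 1 to 4, on the log2 scale. The 4 WT livers were thus all above 0 and the 4 N-LKO livers all below, a difference of −0.40 (two-sided exact permutation p 0.0286, the smallest that 4 against 4 allows). The trend was known in these data before it was tested, so this p is not independent support for it. The difference stayed between −0.44 and −0.38 when any 1 library was left out. The length trend and the genotype cannot be told apart in these 8 libraries, because each group lay wholly on its own side.

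**Figure D1:**
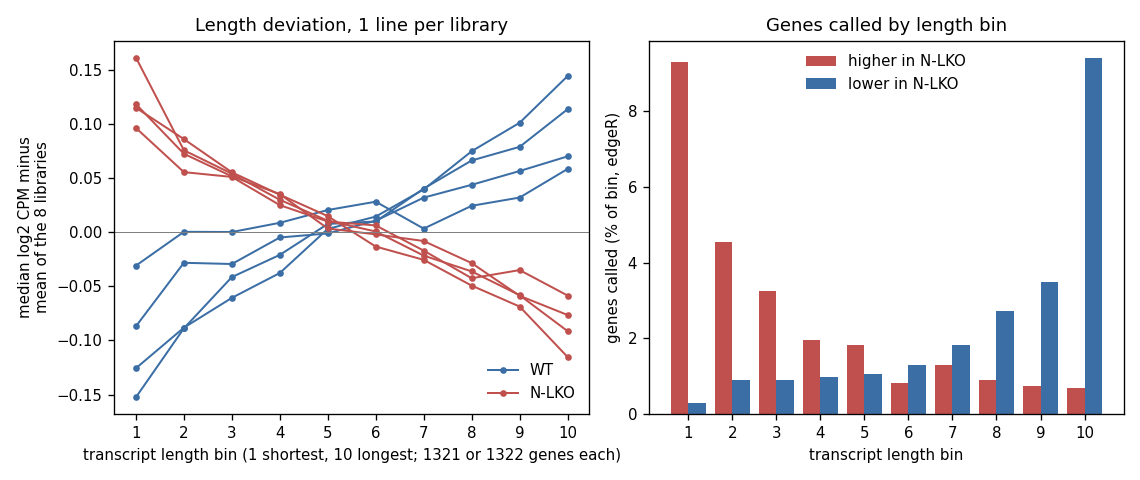
Left: median log2 CPM of the genes in each of 10 bins of transcript length minus their mean over the 8 libraries, 1 line per library, blue for WT and red for N-LKO. Right: share of the genes in each bin called higher (red) or lower (blue) in N-LKO livers by edgeR, in percent. WT lines rise and N-LKO lines fall from bin 1 to bin 10, and calls run from 123 higher and 4 lower in bin 1 to 9 higher and 124 lower in bin 10.

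Because of this trend, results below are set beside a second fit with a per-library offset for transcript length and GC content. With that offset 218 genes were called (1.62%), of which 104 were lower (0.773% of genes) and the others higher (0.847%), and 198 of them were among the 652. A call lost with the offset does not by itself show a smaller difference: of the 454 calls lost, 90 kept at least 90% of their log2 fold change and the others less. Among the named genes these numbers were 12 of 34. The genes called higher had a median length of 1241 bases without the offset and 2743 bases with it, those called lower 5511 and 3000 bases, against 2850 bases for all genes. Across genes the Spearman correlation of log2 fold change with length was −0.37 without and −0.03 with the offset, over 13211 genes that share the same 8 libraries. The offset was fitted to the deviations of these same libraries with length and GC content. The fall of this correlation and the shift of the median lengths were therefore built in and are not a test. Calls that held with and without the offset and whichever library was omitted numbered 93, with 51 genes higher and 42 lower.

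The 12 named genes that rose in all of these fits differ in what they encode. Ly6d, a small membrane-anchored surface protein, was at 6.15, 3.92, 2.67 and 3.46 CPM in WT livers and 18.6, 14.2, 18.8 and 25.2 CPM in N-LKO livers. The groups were far apart and did not overlap (log2 fold change 2.24, SE 0.24, adjusted p 0.00216). Cdkn2c, an inhibitor of the cyclin-dependent kinases that start the cell cycle, was at 2.81, 2.58, 2.78 and 2.14 CPM in WT and 9.11, 6.02, 7.94 and 7.36 CPM in N-LKO livers. All N-LKO values were above all WT values (log2 fold change 1.56, SE 0.19, adjusted p 0.00537). Gldn, which encodes the adhesion protein gliomedin, was near the limit of detection in WT livers (0.208, 0.0956, 0 and 0.713 CPM) and clearly measured in N-LKO livers (3.31, 9.31, 3.26 and 6.64 CPM). WT replicate 3 held no count, so the size of its fitted fold change is not given. Dpt, encoding the matrix protein dermatopontin, rose from 2.40 ± 0.628 to 9.22 ± 2.25 CPM (log2 fold change 1.93, SE 0.24, adjusted p 0.00589). Cbr1, a carbonyl reductase that detoxifies reactive aldehydes and ketones, rose from 35.8 ± 3.20 to 54.2 ± 2.86 CPM (log2 fold change 0.60, SE 0.09, adjusted p 0.00807). Mphosph8, a subunit of the silencing complex that deposits repressive chromatin (0.59, adjusted p 0.00749), and Ankrd12, an ankyrin repeat protein of the nucleus (0.80, adjusted p 0.00693), also rose without overlap between the groups. Sox4, Gpx3, Cyp2a4, Ndufa5 and Rps24 complete the 12 and are described with their groups.

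The genes that fell in all of these fits included E2f8, an atypical E2F factor that represses cell cycle genes and acts in hepatocyte polyploidy. E2f8 was at 13.9, 11.5, 15.9 and 14.6 CPM in WT livers and 5.47, 4.29, 4.03 and 4.16 CPM in N-LKO livers. No N-LKO value reached the lowest WT value (log2 fold change −1.63, SE 0.15, adjusted p 0.00142). Serpine2, a secreted protease inhibitor, was at 14.6, 18.5, 17.7 and 12.5 CPM in WT and 3.64, 2.39, 7.07 and 4.48 CPM in N-LKO livers. The groups did not overlap (log2 fold change −1.87, SE 0.26, adjusted p 0.00749). Prex2, an activator of the GTPase Rac, fell from 10.1 ± 2.09 to 2.89 ± 0.504 CPM (−1.81, adjusted p 0.00237). Sdr9c7, a member of the short-chain dehydrogenase family, fell from 58.8 ± 5.79 to 27.7 ± 5.79 CPM (−1.08, adjusted p 0.00693), and the carboxylesterase Ces3b from 273 ± 42.0 to 152 ± 13.1 CPM (−0.85, adjusted p 0.00749). Klf12, a zinc-finger repressor, varied little within groups, at 21.6, 21.7, 22.2 and 20.4 CPM in WT and 13.3, 14.2, 14.1 and 14.4 CPM in N-LKO livers (−0.62, adjusted p 0.00749). Plcxd2 (−0.79, adjusted p 0.00749), Gprin3 (−0.78, adjusted p 0.00749), Cpeb4, which binds polyadenylation signals and controls translation (−0.69, adjusted p 0.00749), and Birc6, a very large inhibitor of apoptosis (−0.60, adjusted p 0.00693), fell as well. These 4 have long transcripts, and their log2 fold changes were −0.66, −0.60, −0.51 and −0.42 with the offset. Counts of Mphosph8, Ankrd12 and Ces3b were fractional in all 8 libraries, so part of their reads was divided with other features and their values are uncertain.

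**Figure D2:**
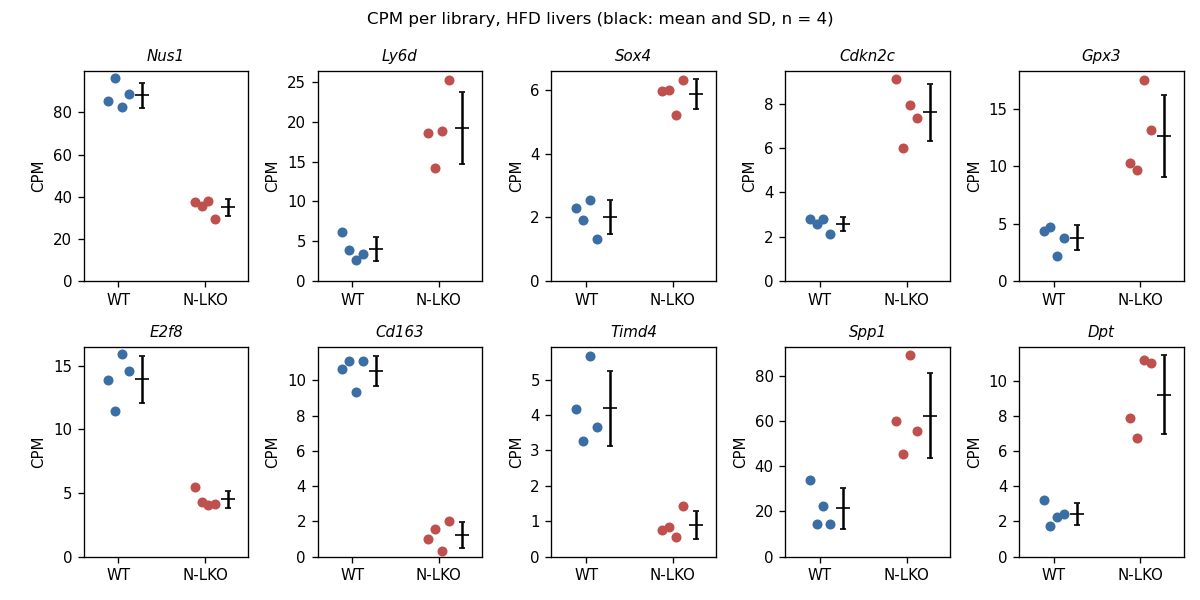
CPM of 10 genes in each library (dots, blue for WT and red for N-LKO; y axes in CPM, starting at 0), with the mean and SD of each group in black (n = 4). In all 10 panels the groups are apart, with Nus1, E2f8, Cd163 and Timd4 lower and the other 6 higher in N-LKO livers.

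Macrophages of the liver are of 2 broad kinds, resident Kupffer cells and cells recruited from blood monocytes, and they carry different surface receptors. The resident markers lay below WT in N-LKO livers. All 18 markers on the Kupffer cell list were tested, 0 had a log2 fold change above 0, and 6 were called lower against 2.29% of all genes, with a median log2 fold change of −0.65 (−0.69 with the offset, where 3 were called). Cd163, the scavenger receptor for haptoglobin-bound hemoglobin, was at 10.6, 11.1, 9.34 and 11.1 CPM in WT livers and 0.994, 1.57, 0.326 and 2.00 CPM in N-LKO livers. The groups were far apart and did not overlap (log2 fold change −3.05, SE 0.30, adjusted p 0.00149). Timd4, a receptor for phosphatidylserine on dying cells, was at 4.17, 3.25, 5.67 and 3.67 CPM in WT and 0.746, 0.824, 0.544 and 1.44 CPM in N-LKO livers. Both genes were called in every fit that left out 1 library and with the offset (log2 fold change −2.19, SE 0.31, adjusted p 0.00749 for Timd4). Folr2, a folate receptor, was −1.33 on the log2 scale (adjusted p 0.0222), and Clec4f, a lectin found in mice on Kupffer cells, was at 32.2, 43.4, 41.7 and 30.3 CPM in WT and 13.8, 14.8, 20.0 and 30.3 CPM in N-LKO livers (−0.90, adjusted p 0.0435), where N-LKO replicate 4 was just below the lowest WT liver. Vsig4 (−1.002, adjusted p 0.0455) and Marco (−1.62, adjusted p 0.0439) make up the 6 and were named after their values were seen. Cd5l and the iron exporter Slc40a1, the most abundant members not called, were at −0.75, adjusted p 0.0909 and −0.21, adjusted p 0.32, and Cd5l was called without N-LKO replicate 4 (0.00976). N-LKO replicate 4 had the highest median over the list among N-LKO livers (0.25 against −0.68 to −0.28 in the other 3, in log2 CPM relative to the 8-library mean), within the WT range of 0.17 to 0.52. The call was lost for Folr2 without WT replicates 2 or 4 or N-LKO replicates 1 or 3 (adjusted p up to 0.0733), for Clec4f without WT replicates 2, 3 or 4 or N-LKO replicates 1, 2 or 3 (up to 0.122), for Vsig4 without WT replicates 1, 2, 3 or 4 or N-LKO replicates 1, 2 or 3 (up to 0.125) and for Marco without WT replicates 2 or 4 or N-LKO replicates 1, 2, 3 or 4 (up to 0.105). With the offset the log2 fold changes of Clec4f, Vsig4 and Marco were no smaller, at −0.94, adjusted p 0.0533, −1.09, adjusted p 0.052 and −1.68, adjusted p 0.0554, and Folr2 was called (−1.45, adjusted p 0.0257). Members called numbered 2 when WT replicate 2 or 4 or N-LKO replicate 1 or 3 was omitted, 3 when N-LKO replicate 2 was, and 4 when WT replicate 3 was.

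Markers of recruited, lipid-associated macrophages that passed the filter on low counts all had log2 fold changes above 0, but few were called. Of 11 tested, 11 were above 0 and 2 were called higher, against 2.56% of all genes, with a median of 0.94 (1.02 with the offset, where 1 was called). The summed level of all 13 markers was 32.5 to 73.1 CPM in WT and 78.9 to 140 CPM in N-LKO livers. Spp1, the secreted phosphoprotein osteopontin, which is also made by biliary cells and by tumor cells, was at 33.8, 14.3, 22.4 and 14.6 CPM in WT livers and 59.8, 45.2, 89.0 and 55.5 CPM in N-LKO livers. Its groups did not overlap, its means were 21.3 ± 9.13 and 62.4 ± 18.8 CPM against 49.4 and 106.8 CPM for the sum (WT and N-LKO, n = 4), and it was called in every fit that left out 1 library (log2 fold change 1.55, SE 0.27, adjusted p 0.0139; 1.48, adjusted p 0.0229 with the offset). The lysosomal tetraspanin Cd63 (1.26, adjusted p 0.0359) had fractional counts in all 8 libraries, was not called with the offset (1.13, adjusted p 0.0743), and lost its call without WT replicates 1, 2, 3 or 4 or N-LKO replicates 1, 3 or 4 (up to 0.0925). Cd9 and Lgals3 were not called (0.38, adjusted p 0.185 and 0.69, adjusted p 0.226). Trem2, which defines these cells, was at 0.445 to 0.625 CPM in WT and 0.320 to 1.16 CPM in N-LKO livers and was below the filter on low counts.

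Sinusoidal endothelial cells clear proteins and collagen fragments from blood. The list also holds markers of other endothelial cells. Of 19 markers tested, 5 had a log2 fold change above 0, 3 were called lower, against 2.29% of all genes, and 0 higher. The median was −0.31 (−0.26 with the offset, where 2 were called). The groups did not overlap for 1 marker with N-LKO livers higher and for 4 with N-LKO livers lower, against 7.39% and 7.4% of all genes. Ehd3, a membrane-trafficking protein of sinusoidal endothelial cells, was at 28.4, 48.2, 34.5 and 35.5 CPM in WT and 20.5, 24.6, 20.0 and 23.0 CPM in N-LKO livers. Its groups did not overlap (log2 fold change −0.73, SE 0.15, adjusted p 0.0201). The scavenger receptor Stab2 (−0.61, adjusted p 0.0355) and the orphan receptor Gpr182 (−0.53, adjusted p 0.0419) were also lower, and with the offset they were at −0.48, adjusted p 0.0785 and −0.50, adjusted p 0.0708. The receptors Fcgr2b (−0.28, adjusted p 0.339) and Kdr (−0.44, adjusted p 0.107) were not called, except without N-LKO replicate 4 (0.0393 and 0.04). Ehd3 lost its call without WT replicate 4 or N-LKO replicates 1 or 3 (adjusted p up to 0.0626), Stab2 without WT replicates 1, 2 or 4 or N-LKO replicates 1, 2 or 3 (up to 0.104) and Gpr182 without WT replicates 1, 2 or 4 or N-LKO replicates 1, 2, 3 or 4 (up to 0.118). No member was called when WT replicate 4 or N-LKO replicate 1 or 3 was omitted, 1 was when replicate 2 of either group was, and 6 were when N-LKO replicate 4 was.

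Stellate cells and fibroblasts lay down the matrix of a scarring liver. Of 30 of their markers tested, 23 were above 0, 3 were called higher, against 2.56% of all genes, and 0 lower, with a median of 0.46 (0.46 with the offset, where 1 was called). Dpt, given above, was the one called with the offset and in every fit that left out 1 library. Cygb, the oxygen-binding cytoglobin of quiescent stellate cells (0.96, adjusted p 0.03), and the protease Mmp23 (1.52, adjusted p 0.0311) were not called with the offset (0.92, adjusted p 0.0629 and 1.42, adjusted p 0.0644) nor, respectively, without WT replicates 2, 3 or 4 or N-LKO replicates 1, 3 or 4 and without WT replicates 2, 3 or 4 or N-LKO replicates 1 or 3 (up to 0.0807 and 0.101). Of the most abundant members, decorin (Dcn) was at 0.50, adjusted p 0.0694, reaching 0.0282 when WT replicate 1 or N-LKO replicate 2 was omitted, and fibronectin (Fn1), which hepatocytes also secrete, at −0.43, adjusted p 0.0535. The summed level of all 33 markers analysed went the other way from the median. It was 1882 to 2069 CPM in WT and 1471.5 to 1912 CPM in N-LKO livers, which overlapped. Fn1 alone had means of 1555 and 1151 CPM, against 1998 and 1707 CPM for the sum (WT and N-LKO). Of 19 collagen genes tested, 12 were above 0 with a median of 0.26 (0.38 with the offset) and Col6a2 alone was called, at 3.33, 2.20, 2.00 and 2.95 CPM in WT and 4.72, 4.45, 6.96 and 5.12 CPM in N-LKO livers (1.01, adjusted p 0.03; 1.07, adjusted p 0.0443 with the offset), and it was not called without WT replicates 2, 3 or 4 or N-LKO replicates 1, 3 or 4 (up to 0.0937). Among the abundant collagens Col18a1 (−0.21, adjusted p 0.155) and Col14a1 (0.26, adjusted p 0.552) were not called. These counts turned on WT replicate 1, whose medians over the stellate and collagen lists (0.14 and 0.27) were the highest among WT livers: without it 7 stellate markers and 5 collagens were called, and without N-LKO replicate 2, 5 and 3. Stellate members called numbered 1 without WT replicate 2, 3 or 4 or N-LKO replicate 1 or 3, and no collagen was called when any 1 of these or N-LKO replicate 4 was left out.

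T and NK cell transcripts were too rare to compare. Of 17 markers of T and NK cells other than Tox, the highest mean over the 8 libraries was 0.746 CPM and none passed the filter. Cd3e was at 0.191 to 0.407 CPM in WT and 0.218 to 0.580 CPM in N-LKO livers, and Cd8a at 0.111 to 0.313 and 0.109 to 0.494 CPM. Tox, the 1 tested, was at 0.19, adjusted p 0.597. A difference in these cells was not detectable at this depth. Among 3 tested B and plasma cell markers Igkc (0.55, adjusted p 0.178) and Ighm (0.55, adjusted p 0.356, and 0.03 without N-LKO replicate 1) were not called, nor was any of 5 neutrophil and dendritic cell markers, which include Zbtb46 (−0.27, adjusted p 0.46) and S100a9 (0.34, adjusted p 0.679). The 7 tested genes of MHC class II antigen presentation all had log2 fold changes above 0 with a median of 0.53, and none was called. Cd74 was at 47.0, 30.6, 36.8 and 20.1 CPM in WT and 40.1, 40.1, 60.5 and 54.1 CPM in N-LKO livers, which overlapped (0.53, adjusted p 0.174), and H2-Aa at 0.62, adjusted p 0.0759. Without WT replicate 1, 2 of them were called, H2-Aa at 0.0317. Markers of blood, fat and pancreas gave no call among 7 tested. Summed hemoglobin was 62.1 to 214 CPM in WT and 179 to 520 CPM in N-LKO livers, highest in N-LKO replicate 2, with Hbb-bs at 1.13, adjusted p 0.103 and Alas2 at −0.11, adjusted p 0.692.

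Genes of fetal liver, biliary cells and liver tumors had the largest share of calls among the lists. The lists were chosen with earlier results of these data known, so this rank is not a test. Of 35 genes analysed, 25 passed the filter on low counts and were tested. Of these 25, 20 had a log2 fold change above 0, 12 were called higher and 0 lower, against 2.56% and 2.29% of all genes. The median was 0.56, and with the offset it was 0.62 and 8 were called. The 12 were Ly6d, Sox4, Krt18, Robo1, Spp1, Anxa2, Cd24a, Tspan8, Krt8, S100a11, S100a10 and Lgals1, of which the last 7 were named after their values were seen. Afp, Gpc3, H19, Igf2, Dlk1, Golm1, Meg3, Peg3 and Myc are also on the list, and none of them was called, whether or not it passed the filter. Sox4, a transcription factor of embryonic and tumor tissue, was at 2.29, 1.91, 2.56 and 1.32 CPM in WT livers and 5.96, 6.02, 5.22 and 6.32 CPM in N-LKO livers. Each N-LKO liver was above each WT liver (log2 fold change 1.54, SE 0.21, adjusted p 0.00749). Krt18, with Krt8 the keratin pair of hepatocytes, was at 135, 119, 129.98 and 107 CPM in WT and 175, 183, 175 and 180.2 CPM in N-LKO livers, again with no overlap (log2 fold change 0.54, SE 0.08, adjusted p 0.00988). Robo1, a receptor of guidance cues, rose from 11.2 ± 1.72 to 20.2 ± 3.00 CPM (log2 fold change 0.84, SE 0.14, adjusted p 0.0126). Ly6d, Sox4, Krt18, Robo1 and Spp1 were called in every fit that left out 1 library, and these 5 were also called with the offset. The membrane-binding annexin Anxa2 (1.002, adjusted p 0.0176), the surface protein Cd24a (1.37, adjusted p 0.0242) and the tetraspanin Tspan8 (2.83, adjusted p 0.0251) kept their calls with the offset. Krt8 (0.43, adjusted p 0.0285), S100a11 (1.27, adjusted p 0.029), S100a10 (0.43, adjusted p 0.0358) and Lgals1 (0.88, adjusted p 0.049) did not, at 0.36, adjusted p 0.0915, 1.05, adjusted p 0.0909, 0.24, adjusted p 0.24 and 0.70, adjusted p 0.159. Anxa5 (0.70, adjusted p 0.0719) and Lcn2 (0.35, adjusted p 0.742), the most abundant members not called, overlapped between the groups, and Anxa5 was called when WT replicate 1 or N-LKO replicate 2 was omitted (as low as 0.0181). Counts of Krt8 and S100a11 were fractional in all 8 libraries. All 7 named after their values were seen lost their calls without each of WT replicates 2 and 4 and N-LKO replicate 1, at adjusted p of up to 0.0586 (Anxa2), 0.0697 (Cd24a), 0.0832 (Tspan8), 0.0865 (Krt8), 0.0918 (S100a11), 0.105 (S100a10) and 0.127 (Lgals1). Further calls were lost without N-LKO replicate 3 for all of them but Anxa2, without N-LKO replicate 4 for Krt8, S100a10, S100a11 and Lgals1, and without WT replicate 3 for Krt8, S100a11 and Lgals1. Leaving out WT replicate 2, WT replicate 4 or N-LKO replicate 1 left 5 called, leaving out N-LKO replicate 3 left 6 and N-LKO replicate 4 left 8, and 15 were called when WT replicate 1 was omitted.

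Several of these genes are also markers of bile duct cells. The summed level of the 10 biliary markers analysed was 33.6 to 50.4 CPM in WT and 71.0 to 121 CPM in N-LKO livers, and without Spp1 it was 16.7 to 22.7 and 21.6 to 31.6 CPM. Spp1 was the 1 of 3 tested that was called, and Sox9 (0.36, adjusted p 0.301) was not. The biliary keratins Krt19 and Krt7 stayed at or under 0.713 and 0.494 CPM in every library and Epcam at or under 1.85 CPM. The part of bile duct cells in the values above was not tested.

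Cell division genes were measured at low levels, and most did not pass the filter or were not called. Of 21 tested, 16 were above 0 with a median of 0.21, and Ccnd1 alone was called. Ccnd1, the D-type cyclin that drives entry into the cycle, was at 25.5, 32.3, 32.2 and 45.7 CPM in WT and 50.1, 71.9, 64.1 and 60.9 CPM in N-LKO livers, with WT replicate 4 just below the lowest N-LKO liver (log2 fold change 0.86, SE 0.16, adjusted p 0.017; adjusted p 0.0257 with the offset and 0.0549 without WT replicate 2). The replication factors Pcna (0.21, adjusted p 0.236) and Rrm1 (0.19, adjusted p 0.559) were not called. Among 19 tested genes of p53 and of inhibitors of the cycle, 2 were called higher, against 2.56% of all genes. They were Cdkn2c and the antiproliferative gene Btg2. Btg2 was at 8.33, 7.74, 4.67 and 8.66 CPM in WT and 12.8, 18.0, 13.6 and 17.4 CPM in N-LKO livers with no overlap (log2 fold change 1.07, SE 0.19, adjusted p 0.0139), and both were called in every fit that left out 1 library and with the offset. Ei24 (0.10, adjusted p 0.532) was not called. Btg2 and Klf6 were the 2 called of 17 immediate early genes, both higher, against 2.56% of all genes. Klf6 (0.94, adjusted p 0.0288; 1.04, adjusted p 0.0257 with the offset) lost its call without WT replicates 2 or 4 or N-LKO replicates 1, 3 or 4 (up to 0.0827), and Egr1, a quick-response gene, was at 29.6, 129, 9.90 and 17.3 CPM in N-LKO livers, N-LKO replicate 2 standing far above the rest (1.37, adjusted p 0.239). Zfp36 was at 0.29, adjusted p 0.494.

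Male and female mouse livers differ in a large set of genes that are set by the pattern of growth hormone release, and all mice here were male. Of 21 male-biased genes tested, 1 had a log2 fold change above 0 and 7 were called lower against 2.29% of all genes, with a median of −0.76 (−0.80 with the offset, where 4 were called). Of 14 female-biased genes, all 14 were above 0 and 2 were called higher against 2.56% of all genes, with a median of 0.60 (0.60 with the offset, where the same number was called). Hsd3b5, a steroid dehydrogenase of male liver, was at 17.1, 95.2, 77.4 and 13.1 CPM in WT livers and 0.249, 0.412, 0.762 and 7.20 CPM in N-LKO livers. WT replicates 1 and 4 were the lower WT livers and N-LKO replicate 4 the highest N-LKO liver, and the groups still did not overlap (log2 fold change −4.49, SE 0.86, adjusted p 0.0176). Cyp7b1, an oxysterol hydroxylase of the alternative route of bile acid synthesis, was at 163, 364, 278 and 196 CPM in WT and 92.8, 106, 130.5 and 122 CPM in N-LKO livers (log2 fold change −1.15, SE 0.21, adjusted p 0.017). Slco1a1, an organic anion transporter, was at 126.3, 319, 204 and 116 CPM in WT and 19.6, 15.1, 30.2 and 75.5 CPM in N-LKO livers (log2 fold change −2.44, SE 0.47, adjusted p 0.018), again with N-LKO replicate 4 nearest to WT. Mup12, a major urinary protein, was at −1.98, adjusted p 0.0277. Ugt2b38, Keg1 and Ugt2b1 make up the 7 and were named after their values were seen (−1.12, adjusted p 0.0362, −0.66, adjusted p 0.0423 and −0.54, adjusted p 0.0341). The abundant urinary proteins were not called, Mup20 (−0.11, adjusted p 0.807) and Mup7, at 1582, 6500.4, 6402 and 3486 CPM in WT and 924, 156, 1657 and 2146 CPM in N-LKO livers (−1.88, adjusted p 0.102).

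Cyp2a4, a steroid hydroxylase higher in females, was at 2.71, 1.72, 1.11 and 2.85 CPM in WT and 18.0, 18.2, 8.38 and 7.04 CPM in N-LKO livers, without overlap (log2 fold change 2.61, SE 0.38, adjusted p 0.0076). Gprc5b, an orphan receptor, was at 4.38, 3.15, 1.33 and 0.611 CPM in WT and 12.8, 14.4, 10.99 and 6.16 CPM in N-LKO livers, with N-LKO replicate 4 nearest to WT (log2 fold change 2.21, SE 0.42, adjusted p 0.0173). The more abundant Cyp2b9 (0.77, adjusted p 0.435) and Abcd2 (0.26, adjusted p 0.382) were not called. Of 22 tested genes of growth hormone and insulin-like growth factor signalling, Igfals alone was called. Igfals, the subunit that keeps the growth factor in circulation, was at 57.9, 43.5, 51.3 and 63.7 CPM in WT and 41.7, 37.3, 35.1 and 41.4 CPM in N-LKO livers (log2 fold change −0.47, SE 0.12, adjusted p 0.0419). It was not called with the offset (−0.50, adjusted p 0.0622) nor without WT replicates 1, 3 or 4 or N-LKO replicates 1, 2, 3 or 4 (up to 0.113). The growth hormone receptor Ghr did not overlap between the groups but was not called (622, 611, 563 and 585 CPM in WT and 559, 415, 529 and 511 CPM in N-LKO livers; −0.24, adjusted p 0.178), and Igfbp4 was at 0.15, adjusted p 0.36. Without WT replicate 2, 4 genes of this list were called, and none without any other library.

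The sex-biased calls leaned on few libraries. No male-biased gene was called when N-LKO replicate 1 was omitted, 1 was when WT replicate 2 or N-LKO replicate 3 was, and 3 were when WT replicate 3 was. Hsd3b5 and Slco1a1 lost their calls without WT replicate 2 or N-LKO replicates 1 or 3 (adjusted p up to 0.0564 and 0.0574), Mup12 without WT replicates 2 or 3 or N-LKO replicates 1 or 3 (up to 0.0782), and Cyp7b1 and Gprc5b without N-LKO replicate 1 (0.0559 and 0.0536). Ugt2b38 lost it without WT replicates 2, 3 or 4 or N-LKO replicates 1, 2, 3 or 4 (up to 0.114), Keg1 without WT replicates 1, 2, 3 or 4 or N-LKO replicates 1, 3 or 4 (up to 0.0971) and Ugt2b1 without WT replicates 2 or 3 or N-LKO replicates 1, 2 or 3 (up to 0.0979). With the offset these 3 were at −1.11, adjusted p 0.067, −0.71, adjusted p 0.0545 and −0.50, adjusted p 0.0749, whereas Hsd3b5 (−4.58, adjusted p 0.0272), Slco1a1 (−2.33, adjusted p 0.0368), Mup12 (−2.09, adjusted p 0.0378), Cyp7b1 (−1.17, adjusted p 0.0272), Cyp2a4 (2.54, adjusted p 0.0132) and Gprc5b (2.28, adjusted p 0.0257) were called. Among female-biased genes 1 was called without N-LKO replicate 1 and 3 without WT replicate 4. Counts of Cyp2a4, Mup12 and Ugt2b38 were fractional in all 8 libraries and their values are uncertain.

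**Figure D3:**
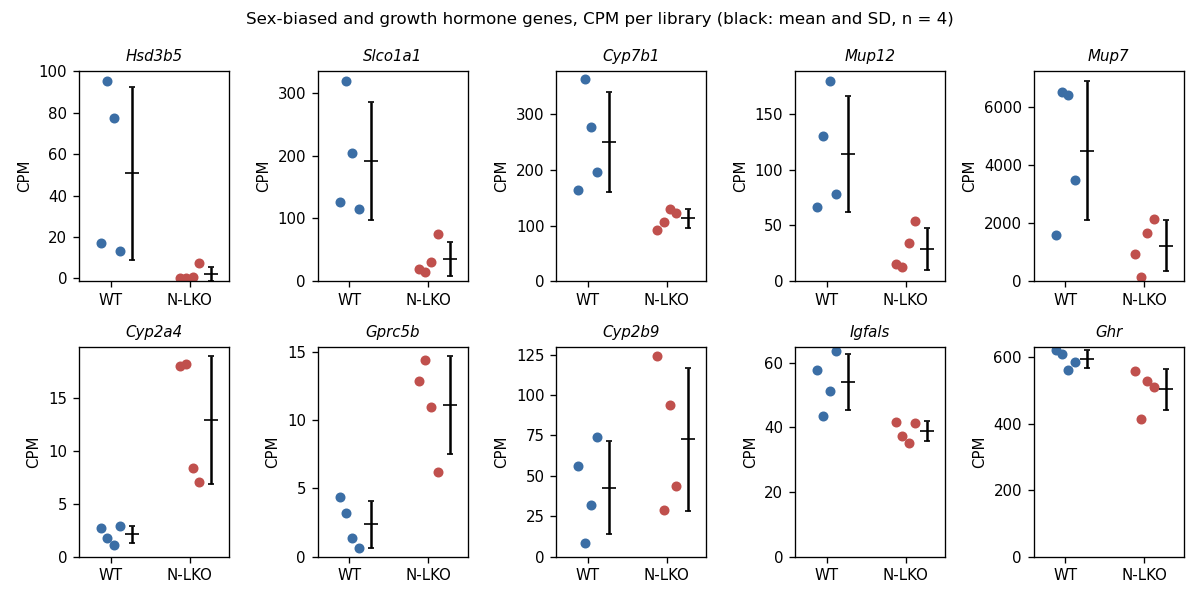
CPM of 10 genes in each library (dots, blue for WT and red for N-LKO; y axes in CPM), with the mean and SD of each group in black (n = 4). The top row shows male-biased genes, which are lower in N-LKO livers (Mup7 overlaps), with N-LKO replicate 4 the highest N-LKO liver in 4 of 5 panels; the bottom row shows female-biased Cyp2a4, Gprc5b and Cyp2b9 and the growth hormone genes Igfals and Ghr, drawn the same way.

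Cytochrome P450 enzymes oxidise drugs, steroids and fatty acids. Of 60 tested, 2 were called higher and 3 lower (3.33% and 5% of them, against 2.56% and 2.29% of all genes), and all 5 were also called with the offset. Besides Cyp2a4 and Cyp7b1 they were Cyp1b1, which acts on estrogens and aryl hydrocarbons (1.15, 1.24, 0.556 and 0.407 CPM in WT and 2.49, 3.05, 2.29 and 2.56 CPM in N-LKO livers; 1.61, adjusted p 0.022), Cyp4f14, which acts on leukotrienes (71.7, 72.3, 76.1 and 67.01 CPM in WT and 50.9, 55.2, 45.7 and 53.5 CPM in N-LKO livers; −0.48, adjusted p 0.0137), and Cyp2d40 (−0.40, adjusted p 0.0351), named after its values were seen. The groups did not overlap for Cyp1b1 and Cyp4f14, and Cyp4f14 was called in every fit that left out 1 library. Cyp1b1 was not called without WT replicate 4 or N-LKO replicates 1 or 4 (up to 0.0597) nor Cyp2d40 without WT replicates 2, 3 or 4 or N-LKO replicates 1, 2, 3 or 4 (up to 0.0992). The abundant Cyp2e1 (−0.18, adjusted p 0.452) and Cyp4a14 (0.28, adjusted p 0.54) were not called. In all, 9 were called without WT replicate 1 and 2 without N-LKO replicate 1.

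Bile acids are made from cholesterol in hepatocytes, exported to bile and taken up again from blood. Of 25 tested genes of this circuit 3 were called lower and 0 higher, against 2.29% and 2.56% of all genes. The median was −0.16 (−0.15 with the offset, where 4 were called). The 3 called lower were Cyp7b1 and Slco1a1, given above, and Klb, the co-receptor through which gut-derived FGF15 represses synthesis. Klb was at 23.2, 31.1, 28.0 and 29.9 CPM in WT and 18.9, 21.01, 19.3 and 16.9 CPM in N-LKO livers, without overlap (log2 fold change −0.56, SE 0.11, adjusted p 0.0196). It was called with the offset (−0.54, adjusted p 0.0443) and not without WT replicates 2 or 4 or N-LKO replicates 1, 3 or 4 (up to 0.0639). The uptake transporter Slco1b2 (−0.33, adjusted p 0.213) and the export pump Abcc2 (−0.40, adjusted p 0.0694) were not called. No member was called when N-LKO replicate 1 was omitted, and 1 was when WT replicate 2 or N-LKO replicate 3 was.

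Glutathione and its transferases neutralise peroxides and electrophiles. Of 47 tested genes of this system 10 were called higher and 0 lower, against 2.56% and 2.29% of all genes, with a median of 0.23 (0.19 with the offset). With the offset 2 remained, Gpx3 and Gsta1. The median length of the tested members was 1553 bases, below that of all genes, and all 10 called were shorter than the all-gene median. Gpx3, the secreted glutathione peroxidase, was at 4.38, 4.68, 2.22 and 3.77 CPM in WT livers and 10.3, 9.64, 17.5 and 13.2 CPM in N-LKO livers. Every N-LKO value exceeded every WT value, and the call held with the offset and in every fit that left out 1 library (log2 fold change 1.73, SE 0.24, adjusted p 0.00749). Gsta1, an inducible transferase, was at 3.02, 1.53, 1.33 and 1.02 CPM in WT and 6.96, 3.87, 6.42 and 9.60 CPM in N-LKO livers, without overlap (log2 fold change 1.96, SE 0.35, adjusted p 0.0142; adjusted p 0.05 without WT replicate 2). Gstm2 (0.64, adjusted p 0.022) and the membrane-bound Mgst3 (0.86, adjusted p 0.0241) were at 0.51, adjusted p 0.0773 and 0.73, adjusted p 0.0647 with the offset, and lost their calls without WT replicates 2 or 4 or N-LKO replicates 1 or 4 and without WT replicate 2 or N-LKO replicates 1 or 3, respectively (up to 0.0662 and 0.0741). The abundant catalase gene Cat did not overlap between the groups, with N-LKO livers lower, and was not called (2721, 2848, 2734 and 2726 CPM in WT and 2474, 2419, 2292 and 2420.3 CPM in N-LKO livers; −0.20, adjusted p 0.182), and Mgst1 was at 0.07, adjusted p 0.739. Omitting WT replicate 2 left 1 called, WT replicate 4 or N-LKO replicate 1 or 4 left 3, N-LKO replicate 3 left 5 and WT replicate 3 left 6. Counts of Gsta1 and Gstm2 were fractional in all 8 libraries, since the transferases of a class resemble each other.

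Genes of oxidative phosphorylation and of the cytosolic ribosome are short, and both groups moved in the same direction as short transcripts in general. Of 75 tested nuclear genes of the respiratory chain and ATP synthase, with a median length of 908 bases, all 75 had a log2 fold change above 0. Their median was 0.27 and 21 were called higher, against 2.56% of all genes and 9.30% of genes in the bin of shortest transcripts. In the next bin, which starts at 891 bases, 4.54% were called higher. The groups did not overlap, with N-LKO livers higher, for 41 of the 75, against 7.39% of all genes. With the offset the median was 0.10 and 1 was called. That gene was Ndufa5, a subunit of complex I, at 29.0, 25.9, 31.8 and 26.8 CPM in WT and 45.1, 47.1, 46.1 and 39.6 CPM in N-LKO livers (log2 fold change 0.65, SE 0.09, adjusted p 0.00802; 0.49, adjusted p 0.0251 with the offset). Uqcrh of complex III (0.49, adjusted p 0.00988), Cox6c of complex IV (0.45, adjusted p 0.0119) and Ndufs6 of complex I (0.47, adjusted p 0.0128) had no overlap between the groups and were at 0.28, adjusted p 0.0644, 0.28, adjusted p 0.0647 and 0.30, adjusted p 0.0759 with the offset. Counts of Cox6c, Atp5b and Atp5a1 were fractional in all 8 libraries. The abundant and longer Atp5b and Atp5a1, the catalytic core of ATP synthase, were at 0.00, adjusted p 0.985 and 0.10, adjusted p 0.502. Omitting WT replicate 2 or N-LKO replicate 1 left 4 called, WT replicate 4 or N-LKO replicate 3 left 7, N-LKO replicate 4 left 10 and WT replicate 1 left 11. None of the 13 mitochondrially encoded messages was called, with mt-Co1 at −0.13, adjusted p 0.509 and mt-Cytb at 0.05, adjusted p 0.838, and the sign of their median depended on the scaling.

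Of 86 ribosomal protein genes tested, 83 were above 0 and 19 were called higher, against 2.56% of all genes, 9.30% in the bin of shortest transcripts and 4.54% in the next. Their median was 0.27 and their median length 886.5 bases. The groups did not overlap for 41 of the 86 with N-LKO livers higher and for 1 with N-LKO livers lower, against 7.39% and 7.4% of all genes. With the offset the median was 0.12 and 5 were called. Together these genes took 0.449% to 0.484% of the counts in WT and 0.578% to 0.684% in N-LKO livers, without overlap. Rps24 was at 150.4, 155, 171 and 157 CPM in WT and 229.9, 274, 251 and 233.9 CPM in N-LKO livers (log2 fold change 0.64, SE 0.08, adjusted p 0.00693; 0.57, adjusted p 0.0177 with the offset). Rpl27a (0.73, adjusted p 0.00833) was also called with the offset (0.61, adjusted p 0.0255), and Rpl39 (0.50, adjusted p 0.01) and Rps12l1 (0.62, adjusted p 0.0153) were not (0.31, adjusted p 0.067 and 0.36, adjusted p 0.0886). The abundant Rpl4 (0.09, adjusted p 0.574) and Rpl7 (0.22, adjusted p 0.108) were not called. Without WT replicate 2, 5 were called. Omitting WT replicate 4 left 6, N-LKO replicate 1 left 9, N-LKO replicate 4 left 11, and N-LKO replicate 3 or WT replicate 1 left 12. Most ribosomal protein genes have processed pseudogenes, and counts of Rps24, Rpl27a, Rps12l1, Rpl4 and Rpl7 were fractional in all 8 libraries. The part of transcript length in the values of both groups was not separated from that of genotype.

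Hepatocytes pack triglyceride on apolipoprotein B into very low-density lipoprotein (VLDL). Of 21 tested genes of this route 2 were called higher and 1 lower, against 2.56% and 2.29% of all genes. Apoc2, the activator of lipoprotein lipase, was at 115, 77.1, 107 and 104 CPM in WT livers and 191, 183, 187 and 153 CPM in N-LKO livers. The groups did not overlap, and Apoc2 was the member called in every fit that left out 1 library and with the offset (log2 fold change 0.82, SE 0.12, adjusted p 0.00833; 0.64, adjusted p 0.0316 with the offset). Apob itself, with a very long transcript, was at 7994, 9549.7, 7407 and 8592 CPM in WT and 5595, 5679.6, 6138 and 5920.5 CPM in N-LKO livers, without overlap (−0.52, adjusted p 0.022), and was at −0.34, adjusted p 0.102 with the offset. Pltp, the phospholipid transfer protein (0.60, adjusted p 0.0312), was at 0.55, adjusted p 0.0714 with the offset. The abundant Apoe (0.13, adjusted p 0.478) and Apoa1 (0.27, adjusted p 0.281) were not called. Apob lost its call without WT replicates 2 or 4 or N-LKO replicates 1, 3 or 4 (up to 0.0616) and Pltp without WT replicates 2, 3 or 4 or N-LKO replicates 1, 3 or 4 (up to 0.0899). Omitting WT replicate 2 or 4 or N-LKO replicate 1, 3 or 4 left 1 called, and omitting WT replicate 1 gave 5. Counts of Apoc2 and Apob were fractional in all 8 libraries.

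Of 29 tested genes of fatty acid uptake and lipid droplets, 2 were called higher, against 2.56% of all genes. Plin3, a droplet coat protein, was at 35.0, 31.4, 31.5 and 25.7 CPM in WT and 48.2, 49.9, 38.6 and 42.2 CPM in N-LKO livers, without overlap (log2 fold change 0.54, SE 0.11, adjusted p 0.0251; adjusted p 0.0341 with the offset). Fabp2, a fatty acid binding protein best known from intestine, was at 132, 119, 129 and 132 CPM in WT and 171, 174, 164 and 151 CPM in N-LKO livers (log2 fold change 0.37, SE 0.08, adjusted p 0.0242; 0.26, adjusted p 0.125 with the offset). Fabp1, the abundant liver form, was at 0.21, adjusted p 0.366, and the acyl-CoA synthetase Acsl1, lower in all 4 N-LKO livers than in any WT liver, at −0.38, adjusted p 0.0636 (0.0414 without WT replicate 1). Plin3 was not called without WT replicates 2 or 4 or N-LKO replicate 1 and Fabp2 not without WT replicates 2 or 4 or N-LKO replicates 1 or 3 (up to 0.0762 and 0.0762). No member was called when WT replicate 2 or 4 or N-LKO replicate 1 was omitted, 1 was when N-LKO replicate 3 was, and 6 were when WT replicate 1 was.

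Other lipid pathways gave few or no calls. Of 10 LXR and cholesterol efflux genes Abca1, the pump that loads cholesterol onto apolipoprotein A-I, was called. It was at 204, 198, 202 and 197 CPM in WT and 140.4, 132, 165 and 159.8 CPM in N-LKO livers, without overlap (log2 fold change −0.42, SE 0.09, adjusted p 0.022), at −0.27, adjusted p 0.122 with the offset and not called without WT replicates 2 or 4 or N-LKO replicate 1 (up to 0.0662). Lpcat3 (0.12, adjusted p 0.407) and Abcg8 (−0.24, adjusted p 0.342) were not called. None of 24 genes of cholesterol synthesis was called (median −0.14; Sc5d 0.06, adjusted p 0.832). None of 21 genes of fatty acid and triglyceride synthesis was called (median 0.05, 0.20 with the offset). Scd1, the desaturase that makes monounsaturated fatty acids, was at 9403, 2036, 2284 and 3725 CPM in WT and 8874, 4907, 4781 and 6357 CPM in N-LKO livers. WT replicate 1 was the highest of all 8, so the groups overlapped (0.51, adjusted p 0.496), and Scd1 was called without that library (0.0297). Elovl5 was at 0.37, adjusted p 0.136. None of 31 genes of fatty acid oxidation was called (median 0.01). Without WT replicate 1 there were 2 lipogenic genes called and 1 of cholesterol synthesis.

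Loss of N-glycosylation can leave proteins misfolded in the ER, which calls up chaperones through the unfolded protein response. In these libraries ER chaperone messages were not higher in N-LKO livers. Of 29 tested genes 4 had a log2 fold change above 0, 0 were called higher and 1 lower, with a median of −0.35 (−0.34 with the offset, where none was called). Hspa5, the main ER chaperone, was at 897, 2542, 2131 and 1337 CPM in WT livers and 858, 1282, 1388 and 957 CPM in N-LKO livers. WT livers spread over a wider range than N-LKO livers, WT replicates 1 and 4 lay within the N-LKO range, and the groups overlapped (log2 fold change −0.62, SE 0.28, adjusted p 0.206). Its counts were fractional in all 8 libraries. Hsp90b1 was at 921, 2247, 1582 and 1214 CPM in WT and 979, 1166, 1649 and 1217 CPM in N-LKO livers (−0.25, adjusted p 0.573). Ern1, the sensor kinase IRE1, was lower in all N-LKO livers, at 31.1, 39.6, 29.8 and 31.8 CPM against 41.5, 51.5, 53.5 and 39.7 CPM (log2 fold change −0.49, SE 0.12, adjusted p 0.0455), and was not called with the offset (−0.37, adjusted p 0.138) nor without WT replicates 2, 3 or 4 or N-LKO replicates 1, 3 or 4 (up to 0.125). Without WT replicate 1, 8 members were called, and none without WT replicate 2, WT replicate 4 or N-LKO replicate 1, 3 or 4. Of 14 genes of the integrated stress response, 12 were above 0 with a median of 0.16 and none was called in this fit or in any that left out 1 library. Atf4, its transcription factor, was at 55.7, 63.5, 83.1 and 76.7 CPM in WT and 69.3, 95.8, 73.1 and 84.6 CPM in N-LKO livers (0.21, adjusted p 0.386), and Shmt2, which did not overlap, at 0.14, adjusted p 0.25.

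The other genes of dolichol synthesis and N-glycosylation moved little. All 37 on the list were tested, Nus1 was the 1 called, and the median was −0.06 (−0.11 with the offset). Magt1 and Rpn1, subunits of the oligosaccharyltransferase, were at 0.04, adjusted p 0.886 and −0.11, adjusted p 0.612. Without N-LKO replicate 2, 3 members were called, and without WT replicate 1, 2.

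Hepatocytes secrete most coagulation and complement factors as glycoproteins. Of 34 tested genes of coagulation and complement 5 were above 0, 3 were called lower, against 2.29% of all genes, and none higher, with a median of −0.16. C8b, a subunit of the membrane attack complex, was at 141, 196, 199.6 and 170.3 CPM in WT and 61.4, 113.97, 109.9 and 112 CPM in N-LKO livers, without overlap (log2 fold change −0.83, SE 0.18, adjusted p 0.0281), and was the 1 called with the offset (−0.87, adjusted p 0.0441). Coagulation factor V (F5) was at −0.45, adjusted p 0.0493 and at −0.31, adjusted p 0.129 with the offset. C3 (−0.40, adjusted p 0.1) and Plg (−0.10, adjusted p 0.616) were not called. The call was lost for C8b without WT replicates 2, 3 or 4 or N-LKO replicate 3 (up to 0.0849) and for F5 without WT replicates 1, 2 or 4 or N-LKO replicates 1, 2, 3 or 4 (up to 0.13). No member was called when WT replicate 2 was omitted, and 1 was when WT replicate 4 or N-LKO replicate 1 or 3 was. Counts of F5 were fractional in all 8 libraries. Of 28 acute phase genes 7 were above 0 and Hamp2, a paralog of the iron hormone hepcidin, was called, at 2.81, 0.287, 1.45 and 2.04 CPM in WT and 9.36, 14.7, 7.73 and 2.72 CPM in N-LKO livers, which overlapped (2.40, adjusted p 0.03; 2.14, adjusted p 0.0647 with the offset; not called without WT replicates 2, 3 or 4 or N-LKO replicates 1, 2 or 3, up to 0.0783). Fga and Fgb, chains of fibrinogen, were at −0.16, adjusted p 0.517 and −0.12, adjusted p 0.636.

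Inflammatory signalling genes gave 1 call. Of 29 interferon-responsive genes Bst2, a surface protein that tethers viruses, was called higher, at 25.4, 21.3, 24.7 and 23.3 CPM in WT and 31.6, 31.97, 30.6 and 37.4 CPM in N-LKO livers without overlap (log2 fold change 0.47, SE 0.10, adjusted p 0.022; 0.30, adjusted p 0.14 with the offset), and not without WT replicates 2 or 4 or N-LKO replicates 1 or 4 (up to 0.0661). Iigp1 (−0.27, adjusted p 0.162) and Irgm1 (−0.12, adjusted p 0.675) were not called. None of 14 chemokines, cytokines and their receptors was called (Cxcl12 −0.11, adjusted p 0.638; Tnfrsf1a 0.17, adjusted p 0.257).

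Among 21 tested transcription factors of hepatocytes 2 were called lower, against 2.29% of all genes, and none higher, with a median of −0.17. Foxa1, which opens chromatin at liver genes, was at 16.7, 19.1, 25.5 and 22.1 CPM in WT and 15.5, 13.1, 12.6 and 11.7 CPM in N-LKO livers, without overlap (log2 fold change −0.65, SE 0.14, adjusted p 0.0269). It was called with the offset (−0.65, adjusted p 0.0495). Hnf4a (−0.28, adjusted p 0.286, and 0.0433 without N-LKO replicate 2) and Rxra (−0.09, adjusted p 0.578) were not called. Foxa1 lost its call without WT replicates 2, 3 or 4 or N-LKO replicates 3 or 4 (up to 0.0745), and no member was called without WT replicate 4 or N-LKO replicate 3.

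Receptor genes of growth factors gave few calls. Of 27 receptor tyrosine kinases, their ligands and partners 2 were called lower, Braf (−0.41, adjusted p 0.0299) and Nrp1 (−0.69, adjusted p 0.0398), against 2.29% of all genes, and with the offset they were at −0.22, adjusted p 0.223 and −0.66, adjusted p 0.0647. Egfr was at 198, 284, 358 and 183 CPM in WT and 80.1, 205, 143 and 129 CPM in N-LKO livers, which overlapped (−0.88, adjusted p 0.0796, and 0.0361 without N-LKO replicate 2). Insr did not overlap (161.6, 169, 167 and 167 CPM in WT and 139.6, 142, 138.3 and 141 CPM in N-LKO livers; −0.24, adjusted p 0.0589), and its log2 fold change was −0.09 with the offset. Of 33 genes of BMP and TGF-beta signalling Acvr2a was called (−0.46, adjusted p 0.0349; −0.30, adjusted p 0.197 with the offset), and Hamp (−0.39, adjusted p 0.44) and Tmprss6 (−0.16, adjusted p 0.242) were not. Braf lost its call without WT replicates 2 or 4 or N-LKO replicates 1, 3 or 4 (up to 0.0888), Nrp1 without WT replicates 2, 3 or 4 or N-LKO replicates 1, 2 or 4 (up to 0.114) and Acvr2a without WT replicates 2, 3 or 4 or N-LKO replicates 1, 2, 3 or 4 (up to 0.101).

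Genes of zonation and intermediary metabolism gave few calls. None of 23 pericentral genes was called (median −0.04). Cyp2e1 is given above, and Glul was at 1316, 1386, 1306 and 1082 CPM in WT and 1720.5, 664, 1733 and 1656 CPM in N-LKO livers, N-LKO replicate 2 being the lowest and the other 3 the highest of the 8 (0.18, adjusted p 0.703, and 0.0451 without N-LKO replicate 2). Of 17 periportal genes, 14 were above 0 with a median of 0.28 (0.22 with the offset). Hsd17b13, an enzyme of lipid droplets, rose, at 410.2, 311, 349 and 356 CPM in WT livers and 551, 648, 524 and 552 CPM in N-LKO livers. Each N-LKO liver was above each WT liver, and the call held in every fit that left out 1 library and with the offset (log2 fold change 0.67, SE 0.10, adjusted p 0.00988; 0.61, adjusted p 0.0231 with the offset). Igfals, given above, was the periportal gene called lower, and Pigr (−0.04, adjusted p 0.86) and Pck1 (0.12, adjusted p 0.781) were not called. Of 30 genes of glucose metabolism, 22 were above 0 with a median of 0.17 (0.10 with the offset), and the groups did not overlap, with N-LKO livers higher, for 6, against 7.39% of all genes. Pgk1, a glycolytic kinase, rose, at 77.5, 66.2, 78.9 and 77.1 CPM in WT and 107, 99.96, 103 and 106 CPM in N-LKO livers without overlap (log2 fold change 0.47, SE 0.08, adjusted p 0.0125; 0.41, adjusted p 0.0272 with the offset), and was called in every fit that left out 1 library. None of 41 genes of the urea cycle and amino acid breakdown was called (median 0.06; Bhmt 0.23, adjusted p 0.404; Mat1a 0.06, adjusted p 0.813), nor was any of 18 clock genes (median −0.05; Tef −0.06, adjusted p 0.844; Nr1d2 0.04, adjusted p 0.867) or of 11 tested histone genes (H1f0 −0.01, adjusted p 0.951; H2bc4 0.01, adjusted p 0.983), whose median changed sign with the scaling. Counts of Hsd17b13, Pgk1 and Glul were fractional in all 8 libraries, as were those of Abcc2, Acvr2a, Alas2, Bhmt, Fn1, H1f0, H2bc4, Hbb-bs, Irgm1, Lpcat3, Pck1, Pcna, Plg and Tmprss6, so their values are uncertain.

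**Figure D4:**
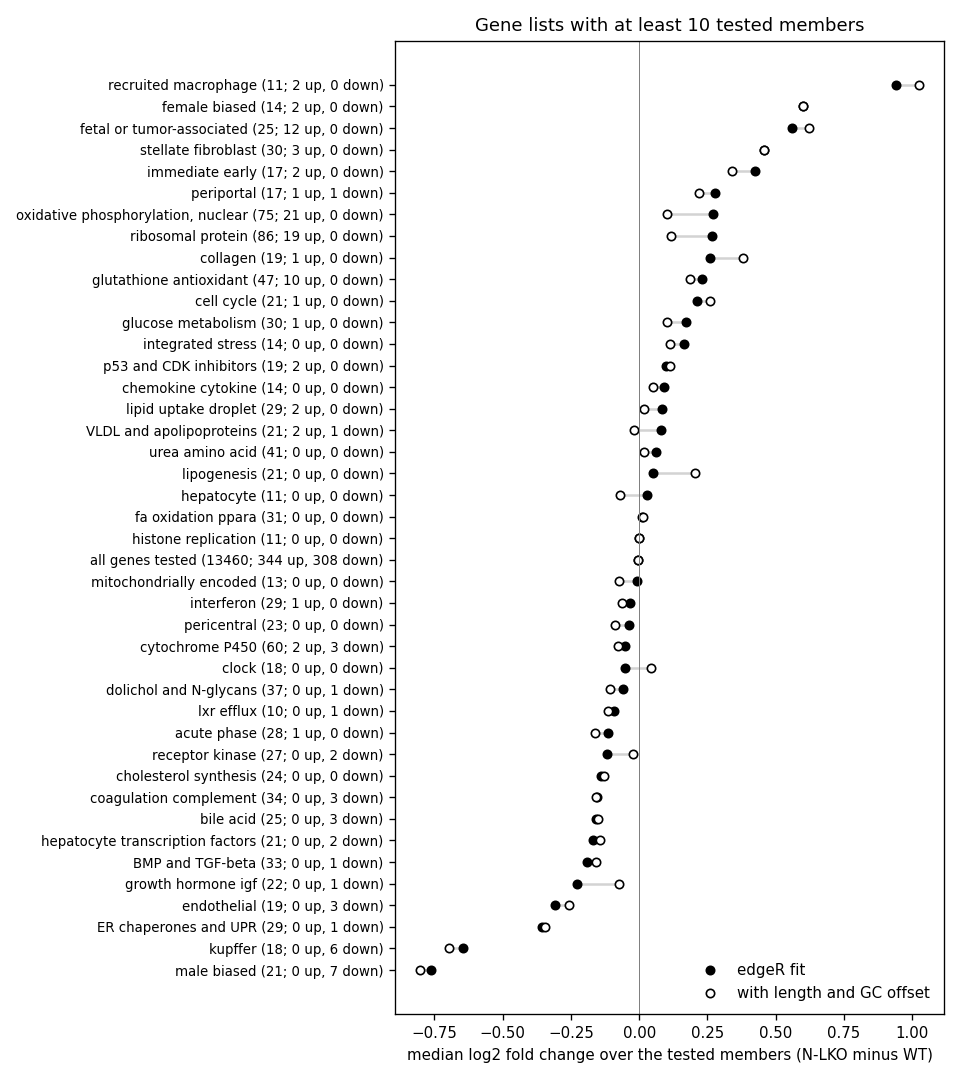
Median log2 fold change (N-LKO minus WT) over the tested members of each list with at least 10 of them, from the edgeR fit (filled) and with the length and GC offset (open); numbers in parentheses are members tested and called higher or lower. Male-biased and Kupffer cell genes lie at −0.76 and −0.65 and recruited macrophage genes at 0.94, and the offset moves oxidative phosphorylation from 0.27 to 0.10 and ribosomal proteins from 0.27 to 0.12.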

How the data were processed

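Total RNA of 8 livers was depleted of ribosomal RNA and sequenced. The authors deposited estimated counts for each gene, made with the Partek E/M annotation model; reads matching several features are divided among them, so 69.3% of values are whole. The submitters' processing notes name STAR, Partek and mm9, whereas the study's methods name another aligner, and the coordinates match GRCm38: 97.7% of symbols were found in GENCODE M21 and the start was the same for 18619 genes. Versions are not given in the sources used here. The authors' counts were not scaled between libraries.

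Columns were assigned to samples through their labels, and groups came from the labels. Counts were rounded and tested in R 4.3.3 with edgeR 4.0.16 (quasi-likelihood F test, TMM scaling, filterByExpr, no covariate, two-sided), with Benjamini-Hochberg adjustment over 13460 genes and a threshold of 0.05. Every adjusted p in the text is from this test unless stated. CPM were computed over TMM-scaled totals of the tested genes. A second fit added a per-library offset, a smooth function of transcript length and GC content from GENCODE, for 13211 genes with a length. Alternatives were other scalings and filters, DESeq2 1.42.0, limma-voom (limma 3.58.1), the replicate number as a block and leaving out each library.

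The 47 gene lists were chosen with earlier results of these data known, and no set test was run. Genes named were Nus1 and Dhdds, and the 12 of lowest p that rose and the 12 that fell, of 86 eligible genes. Eligible genes were called in the main fit, with the offset and in each fit that left out 1 library. They had 5 CPM or more in the higher group and did not overlap (3 and 3 genes with automatic names ranking among them were passed over). For each list, up to 4 members called with the lowest p and up to 2 of the highest CPM not called were named as well. Some members that this rule names are not reported here. The labels call the libraries biological replicates, and depth (9096109 to 12215764 counts) limits precision for genes near 1 CPM.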

Additional observations from a re-analysis of the deposited data

Results flagged for a closer look

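In 17 of 362 sets of 4 libraries, made up of each named gene's CPM and each library measure in each genotype, 1 library stood apart from the other 3 by a gap that, as a share of the range, passed Dixon's critical value for 4 samples. Chance alone flags about 1 set in 20.

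WT replicate 1 was the lowest WT liver for C3 (5501 CPM), Plg (2135 CPM) and Sox9 (3.75 CPM) and the highest for Krt8 (119.9 CPM) and Ankrd12 (24.0 CPM). WT replicate 2 was the highest for Cat (2848 CPM) and the lowest for Pgk1 (66.2 CPM), and WT replicate 3 the highest for Marco (26.0 CPM).

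N-LKO replicate 2 was the highest N-LKO liver for Egr1 (129 CPM) and for the share of counts on ribosomal protein genes (0.684%), and the lowest for Glul (663.8 CPM) and Slco1b2 (879 CPM). N-LKO replicate 1 was the lowest for C8b (61.4 CPM) and the highest for mt-Co1 (28496 CPM) and for the share of counts on mitochondrially encoded genes (12.9%). N-LKO replicate 4 was the highest for Hsd3b5 (7.20 CPM) and Gpr182 (9.44 CPM), in both cases the N-LKO liver nearest to WT.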

How the results depend on the processing

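Of 652 genes called (344 higher, 308 lower), other settings gave between 494 and 659, except for the following. The length and GC offset gave 218 (104 of them lower, 46 list genes), and the DESeq2 Wald test gave 999 (524 higher, 475 lower, 187 list genes). Leaving out 1 library gave 179 to 597 genes, 87 to 307 of them higher, 86 to 304 lower and 34 to 130 list genes. Each such fit has fewer samples, and what else sets the spread was not tested. Without the filter on low counts 524 genes were called. No named gene that was called changed direction under any alternative, and of these 88 genes 54 were called with the offset and 43 to 81 when 1 library was left out. These counts are not an independent check. The 12 genes that rose and the 12 that fell were admitted by these same fits, and the rest of the 88 were picked by calls in the same libraries. The length difference between genotypes, −0.40, stayed between −0.44 and −0.38 when 1 library was left out.

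With the replicate number as a block, 494 genes were called (237 higher, 257 lower), of which 414 were among the 652, and 73 of the 88 named genes kept their call. Same-numbered samples deviated together little, with correlations of 0.083, 0.107, −0.044 and −0.076 across genes, so the numbers were not taken to pair the samples.

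The length trend separates the groups wholly, so calls on genes far from the median length that were lost with the offset cannot be told apart from that trend. Markers below the filter on low counts, among them those of T and NK cells other than Tox, were not compared between the groups. Counts divided between similar genes are uncertain.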
